A study of Rattus norvegicus with 6 samples.

Results

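Fragments named after the glycine tRNA with the anticodon CCC (Gly-CCC) were examined in small RNA libraries from rat hippocampus. All nuclear rows whose name contains Gly-CCC were taken, which gave 31 of the 615 fragments listed. The libraries came from Sprague-Dawley rats of 6 to 8 weeks, 3 given saline and 3 given nicotine, the addictive alkaloid of tobacco, in a series on nicotine dependence. The title numbers the rats 1 to 3 within each group. Sex, dose, route and length of treatment are not stated in the labels used here. The tissue is whole hippocampus, a mixture of neurons, glia and vessel cells.

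A tRNA carries an amino acid to the ribosome and reads the codon with its anticodon, which sits in a loop in the middle of the molecule. Cuts in that loop, made by nucleases such as angiogenin, release a long 5' piece and a long 3' piece, and cuts elsewhere release shorter ones. The long 5' pieces of glycine and glutamate tRNAs are among the most abundant tRNA fragments in many mammalian tissues and in blood. Gly-CCC, Gly-GCC and Gly-TCC are isoacceptors, tRNAs that carry glycine but differ in anticodon. In mammals, some Gly-CCC tRNAs differ little from Gly-GCC tRNAs in sequence between their first base and the anticodon.

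Values are CPM, counts scaled to a library total that the authors set. Values of single libraries are given in the order of libraries 1, 2 and 3 of each group. The totals, recovered from the value of 1 read, ran from 154414 to 374763 reads after saline and from 90828 to 128694 after nicotine. Every nicotine library was shallower than every saline library, so depth and treatment cannot be told apart. Gly-CCC rows held 28738 to 198143 reads per library, and 1 read was worth 2.67 CPM in the deepest library and 11.0 CPM in the shallowest. Intervals on shares are 95% Wilson intervals and cover counting error only.

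The 31 fragments fall into 3 kinds. The 5' fragments, which start at the first base, comprise 20 rows, of which 11 had 28 to 32 nt and 9 had 14 to 24 nt. The tiRNA, tRNA-derived stress-induced RNA that also start at the first base, comprise 3 rows, all of 33 nt. The 3' fragments comprise 8 rows of 17 to 22 nt, and all of them end at position 74. The 5 Trnag-ccc genes in the RefSeq annotation of the rat assembly GRCr8 are 71 nt long, which makes 74 nt with the CCA tail added to mature tRNAs. The list held 0 Gly-CCC rows for trailers, the pieces cut from the end of the precursor tRNA, and 0 internal rows. Reads in all 6 libraries were found for 29 of the 31 rows. All 31 passed the filter of 1 CPM in 3 or more libraries, which is less than 1 read in any library.

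Each name carries a number after the anticodon (1, 2 or 4) and in most rows a suffix beginning with M, which the labels do not explain. Rows numbered Gly-CCC-1 took 99.7% to 99.8% of all Gly-CCC reads in the 6 libraries. Rows numbered Gly-CCC-2 took 0.103% to 0.150%, and rows numbered Gly-CCC-4 took 0.0979% to 0.177%. Among rows numbered 1, the label was Gly-CCC-1-M2 from 15 to 32 nt, Gly-CCC-1-M4 at 14 nt and in the 3' rows, and Gly-CCC-1 without a suffix at 33 nt.

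The parent that a fragment was named after went with its length. Among reads named Gly-CCC or Gly-GCC, the Gly-CCC share at 32 nt was 93.2%, 93.7% and 90.5% after saline and 91.5%, 94.7% and 93.3% after nicotine. At 33 nt, 1 base longer, it was 13.2%, 13.9% and 17.2% after saline and 17.6%, 10.6% and 13.3% after nicotine. The share was therefore lower at 33 nt in 6 of 6 libraries, by 78.5 percentage points ± 4.15 (SD, n = 6), in both treatment groups alike. The Wilson intervals at 33 nt spanned 9.24% to 20.2%, on 870 to 4417 reads per library.

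From 28 to 31 nt the Gly-CCC share lay between 82.8% and 94.4%, so among these lengths the step falls between 32 and 33 nt. The labels of Gly-GCC rows that start at the first base show the counterpart. Gly-GCC-1 is listed at 33 nt and at no shorter length, while Gly-GCC-2-M2 is listed from 16 to 33 nt. Within Gly-CCC the shares of the minor labels rose at the same length. Gly-CCC-4 took 0.0279% to 0.153% of the Gly-CCC reads at 32 nt and 6.90% to 11.3% at 33 nt. Gly-CCC-2 took 0.0866% to 0.134% at 32 nt and 1.10% to 4.23% at 33 nt, there on 2 to 12 reads per library. The CPM of these labels did not rise alike. Over the 6 libraries, mean CPM at 32 and 33 nt was 139 and 127 for Gly-CCC-4 and 248 and 31.1 for Gly-CCC-2. That of Gly-CCC-1 fell from 217470 to 1235, so the shares are of a much smaller total at 33 nt.

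Whether the reads of up to 32 nt named Gly-CCC-1-M2 also match a Gly-GCC tRNA was not tested, because no tRNA sequence was used here. The name Gly-CCC is kept below for the rows that carry it, without a claim on the parent tRNA of reads of up to 32 nt.

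**Figure D1:**
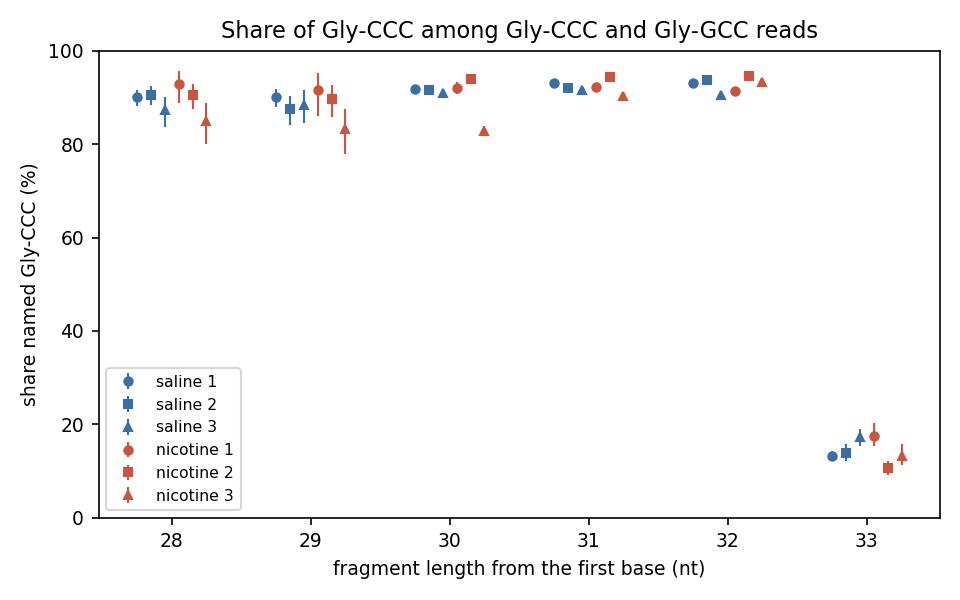
Share of reads named Gly-CCC among reads named Gly-CCC or Gly-GCC (%), against fragment length (nt), for fragments that start at the first base. Points are libraries and bars are 95% Wilson intervals. From 28 to 32 nt all points lie at 82.8% or above, and at 33 nt all lie at 17.6% or below.

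Summed over the rows that carry its name, Gly-CCC ranked 1 of 67 anticodons in all 6 libraries. It had 8.14 to 11.2 times the CPM of the next name, Gly-GCC. The sum was 528715, 433665 and 354149 CPM after saline and 316400, 410044 and 294559 CPM after nicotine. The groups overlapped, since nicotine 2 lay above saline 3. The mean was 438843 CPM ± 87398 after saline (SD, n = 3) and 340334 CPM ± 61350 after nicotine (SD, n = 3). In bulk tissue, fewer cells of a type and less of this RNA per cell cannot be told apart.

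For the Gly-CCC sum, limma gave a log2 fold change (nicotine minus saline, on log2(CPM + 1)) of -0.36 (SE 0.23) and an adjusted p of 0.390 over 66 anticodon sums. None of them passed the threshold of 0.05 (0% called), with 5 at an unadjusted p under 0.05, and edgeR and DESeq2 on recovered reads also called 0, with 2 and 5. The median over all anticodon sums was 0.45, which is not independent of Gly-CCC, since all sums share the total of their library. The value for Gly-CCC was -0.69 after TMM rescaling and -0.12 when scaled to listed reads, and it was -0.22 without saline 1.

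Gly-CCC made up most of the listed reads, so scaling to listed reads divides its CPM largely by itself. Its share of the listed reads was 76.9%, 71.4% and 67.2% after saline and 64.5%, 71.5% and 62.5% after nicotine. The groups overlapped, and the difference of -5.67 percentage points had an exact two-sided permutation p of 0.3. This is 1 of 8 library values tested in the same way, with an adjusted p of 0.667, and the smallest p that 3 against 3 libraries allow is 0.1. The highest share belonged to saline 1, the deepest library, without which the difference was -3.14 points.

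Lengths within Gly-CCC do not depend on scaling between libraries. The main peak was at 32 nt in 6 of 6 libraries, followed by 31 nt and 30 nt, and 28 nt stood above 29 nt in 6 of 6. At 32 nt the Gly-CCC rows together had 136759 to 313342 CPM, and at 31 nt they had 94640 to 176856 CPM. At 30 nt the range was 17087 to 33967 CPM. The ranges at 28, 29 and 33 nt were 1709 to 4605 CPM, 1416 to 2409 CPM and 901 to 1762 CPM, and these 3 overlap. The 9 rows of 14 to 24 nt took 0.0742% to 0.167% of the Gly-CCC reads in all.

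**Figure D2:**
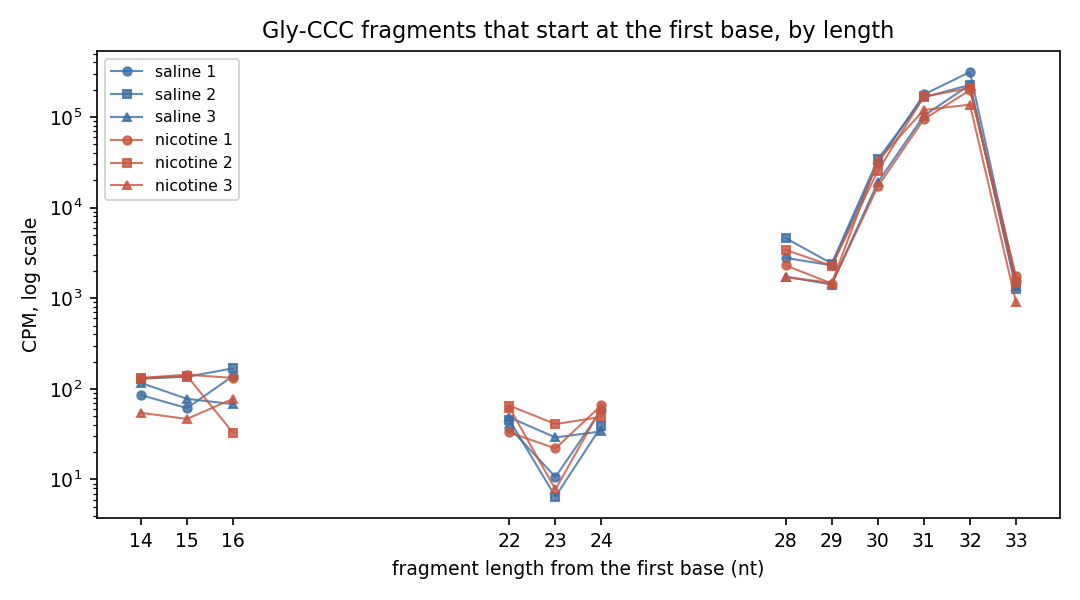
CPM on a log scale against fragment length (nt) for Gly-CCC rows that start at the first base, summed at each length, with a line per library. All 6 libraries peak at 32 nt, from 136759 to 313342 CPM, and fall to 901 to 1762 CPM at 33 nt. Lengths with no listed row are left blank.

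Among 5' fragments of 30 to 32 nt, the 32 nt form took 60.1%, 53.2% and 64.9% after saline and 63.9%, 51.7% and 47.3% after nicotine. Within the nicotine group the values ran from 47.3% to 63.9%, and nicotine 1 lay close to saline 3. The group difference of -5.15 percentage points was smaller than that spread (exact permutation p = 0.4, adjusted p = 0.667). It was -1.63 without nicotine 3, -2.40 without saline 3, -8.25 without saline 2 and -9.93 without nicotine 1. The mean length of Gly-CCC 5' fragments was 31.48 nt ± 0.0864 after saline (SD, n = 3) and 31.41 nt ± 0.104 after nicotine (SD, n = 3, exact permutation p = 0.5).

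Gly-GCC rows ordered the libraries in this share much as Gly-CCC rows did, with only saline 2 and nicotine 2 changing places. The Gly-GCC share of the 32 nt form was 59.0%, 46.3% and 67.8% after saline and 65.8%, 50.0% and 33.4% after nicotine. Gly-CCC lay above Gly-GCC in 4 of 6 libraries, with a mean difference of 3.12 percentage points ± 6.28 (SD, n = 6, exact sign-flip p = 0.375). A difference between the names in this share was not detected with 6 libraries.

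The leading fragment, tRF-1:32-Gly-CCC-1-M2, spans positions 1 to 32. It had 312875, 225265 and 225845 CPM after saline and 197076, 207381 and 136378 CPM after nicotine. In CPM every nicotine library lay below every saline library. Scaled to listed reads, nicotine 1 lay above saline 2, so the groups overlapped. The mean after nicotine was 0.708 times that after saline, and the log2 fold change of -0.50 (SE 0.35) did not pass in limma (adjusted p = 0.752, 586 fragments tested). It was -0.32 without nicotine 3, -0.26 when scaled to listed reads and -0.83 after TMM rescaling.

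The fragment shorter by 1 base, tRF-1:31-Gly-CCC-1-M2, had 176704, 164182 and 103103 CPM after saline and 94508, 168136 and 119330 CPM after nicotine. Here the groups overlapped widely, since nicotine 2 was above saline 2 and saline 3. Its fitted log2 fold change was -0.22 (SE 0.36), with an adjusted p of 0.911 in limma, and it was 0.02 when scaled to listed reads. Without nicotine 1, saline 1 or saline 2 it was -0.02, -0.07 or -0.13, and without saline 3 or nicotine 2 it was -0.46 or -0.44.

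The fragment tRF-1:30-Gly-CCC-1-M2 had 30718, 33909 and 18960 CPM after saline and 17065, 25368 and 33164 CPM after nicotine. Nicotine 3 was high and saline 3 low. The log2 fold change of -0.15 (SE 0.37, adjusted p = 0.939 in limma) turned to 0.10 without nicotine 1 and to 0.01 without saline 2. These 3 fragments took 97.6% to 98.4% of the Gly-CCC CPM in every library, so they make up nearly the whole sum.

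Fragments of 28 and 29 nt were scarcer. tRF-1:28-Gly-CCC-1-M2 had 2786, 4605 and 1726 CPM after saline and 2301, 3418 and 1709 CPM after nicotine. tRF-1:29-Gly-CCC-1-M2 had 2295, 2403 and 1392 CPM after saline and 1431, 2257 and 1461 CPM after nicotine. Both overlapped between the groups, with log2 fold changes of -0.24 (SE 0.39) and -0.23 (SE 0.38), each at an adjusted p of 0.911 in limma. Scaled to listed reads these values were 0.0037 and 0.0098. With a library left out the 28 nt value ran from -0.59 (without saline 3) to 0.12 (without saline 2), so its direction turned. The 29 nt value ran from -0.49 (without saline 3) to -0.09 (without saline 2).

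Of the minor labels, Gly-CCC-2-M2 had 2 rows whose groups did not overlap in CPM. tRF-1:32-Gly-CCC-2-M2 had 328, 272 and 272 CPM after saline and 264, 180 and 171 CPM after nicotine. All nicotine values were lower in CPM, by a narrow margin for nicotine 1, which was the highest when scaled to listed reads. The log2 fold change was -0.52 (SE 0.40, adjusted p = 0.761 in limma). tRF-1:30-Gly-CCC-2-M2 had 32.02, 38.9 and 38.8 CPM after saline and 11.0, 24.5 and 15.5 CPM after nicotine. That is 12, 6 and 8 reads against 1, 3 and 2 reads, with a log2 fold change of -1.12 (SE 0.73, adjusted p = 0.734 in limma).

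The row tRF-1:30-Gly-CCC-4 had 45.4, 19.4 and 38.8 CPM after saline and 11.0, 8.18 and 31.1 CPM after nicotine. Nicotine 3 lay above saline 2, so the groups overlapped, and the log2 fold change was -1.14 (SE 0.79, adjusted p = 0.752 in limma). The row held 1 to 17 reads per library. The remaining long rows with minor labels, tRF-1:31-Gly-CCC-2-M2, tRF-1:32-Gly-CCC-4 and tRF-1:29-Gly-CCC-4, had means of 167, 159 and 13.8 CPM after saline and 135, 118 and 18.0 CPM after nicotine. All 3 overlapped between the groups.

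At 33 nt, where the names divide the reads otherwise, tiRNA-1:33-Gly-CCC-1 had 1377, 1153 and 1164 CPM after saline and 1574, 1317 and 824 CPM after nicotine. The nicotine libraries spread around the saline ones, with nicotine 1 above them all and nicotine 3 below them all. The log2 fold change was -0.04 (SE 0.38, adjusted p = 0.987 in limma). It turned to 0.21 when scaled to listed reads, to 0.23 without nicotine 3 and to 0.05 without saline 1. The other tiRNA rows, tiRNA-1:33-Gly-CCC-4 and tiRNA-1:33-Gly-CCC-2-M2, had means of 134 and 36.9 CPM after saline and 120 and 25.3 CPM after nicotine, and both overlapped.

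The tiRNA took 0.293% to 0.557% of the Gly-CCC reads. Among Gly-GCC reads of 28 to 33 nt, the 33 nt form took 15.7% to 34.4%. Counted over both names, it took 2.04%, 1.93% and 2.02% after saline and 2.85%, 3.15% and 2.05% after nicotine. No nicotine library fell among the saline ones, although nicotine 3 stood barely above saline 1. This share does not depend on how reads were divided between Gly-CCC and Gly-GCC, and it was not tested.

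**Figure D3:**
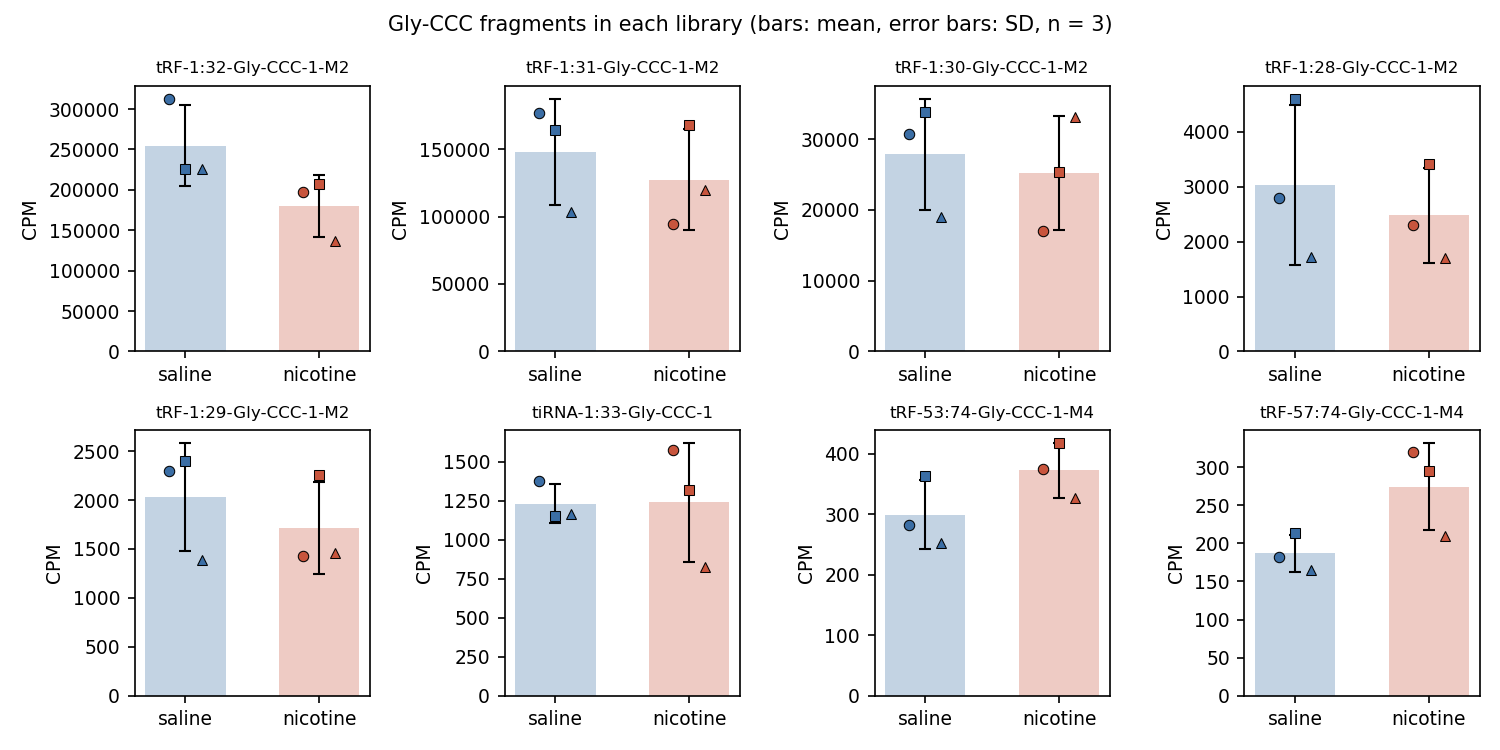
CPM of 8 Gly-CCC fragments in each library, the 7 most abundant and tRF-57:74-Gly-CCC-1-M4, on axes that start at 0, with bars for group means and error bars for the SD (n = 3). Circles, squares and triangles are libraries 1, 2 and 3 of a group. Of those plotted, only tRF-1:32-Gly-CCC-1-M2 has groups that do not overlap, and tRF-1:32-Gly-CCC-2-M2, which also does not, is not drawn.

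The 3' fragments come from the other end of the tRNA and were rare. Reads of 5' fragments and tiRNA outnumbered them 514-fold to 776-fold after saline and 256-fold to 394-fold after nicotine, without overlap. Gly-GCC rows showed a like imbalance, of 151-fold to 512-fold over the 6 libraries. Gly-TCC rows did not, but their ratio was also lower after nicotine without overlap, at 0.569 to 1.26 after saline and 0.429 to 0.481 after nicotine. The Gly-GCC ratio overlapped between the groups. How well each end is ligated and copied into the library was not tested.

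The share of 3' fragments among Gly-CCC reads was 0.129%, 0.194% and 0.181% after saline. It was 0.390%, 0.253% and 0.261% after nicotine, so every nicotine library lay above every saline library. The Wilson intervals of saline 2 (0.164% to 0.230%) and nicotine 2 (0.213% to 0.301%), on 130 and 127 reads, overlapped. So did those of saline 2 and nicotine 3 (0.215% to 0.318%), and those of saline 3 (0.152% to 0.214%) and nicotine 2. The mean was 0.168% ± 0.0346 after saline (SD, n = 3) and 0.301% ± 0.0766 after nicotine (SD, n = 3). The exact permutation p was 0.1, the smallest possible here, and the adjusted p over 8 library values was 0.667. Leaving out nicotine 1 lowered the difference from 0.134 to 0.0894 percentage points. Library depth moves with this share, and its part in it was not tested.

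**Figure D4:**
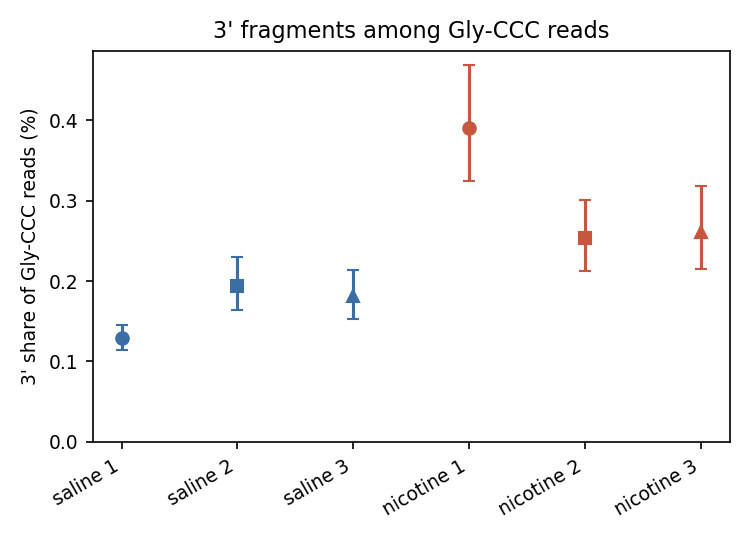
Share of 3' fragments among all Gly-CCC reads (%) in each library, with 95% Wilson intervals. Saline libraries lie at 0.129% to 0.194% and nicotine libraries at 0.253% to 0.390%.

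In CPM the 3' rows together had 680, 842 and 640 after saline and 1233, 1039 and 769 after nicotine. Nicotine 3 lay below saline 2, so the groups overlapped. The log2 fold change was 0.47 (SE 0.30, adjusted p = 0.543 in limma over 169 sums by kind and anticodon). The median over these sums was 0.38, and the 3' sums of Gly-GCC and Gly-TCC had 0.43 and 0.84. The Gly-CCC value was 0.15 after TMM rescaling, 0.02 in edgeR and 0.32 without nicotine 1. The median over the sums tested was 0.06 after TMM rescaling and -0.08 in edgeR. The same fit gave -0.37 (SE 0.24, adjusted p = 0.543 in limma) for the 5' rows and -0.07 (SE 0.31, adjusted p = 0.935 in limma) for the tiRNA rows. Without saline 1 the 5' value was -0.22. The tiRNA value turned to 0.18 when scaled to listed reads, to 0.21 without nicotine 3 and to 0.01 without saline 1, and it was -0.27 without nicotine 1. Of the 169 sums 0% were called, with 14 at an unadjusted p under 0.05, and edgeR and DESeq2 called 0, with 7 and 6.

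The most abundant 3' row, tRF-53:74-Gly-CCC-1-M4 of 22 nt, had 283, 363 and 252 CPM after saline and 374, 417 and 326 CPM after nicotine. Only nicotine 3 fell within the saline range. Its log2 fold change was 0.33 (SE 0.38, adjusted p = 0.859 in limma), against -0.0047 in DESeq2. The median over all fragments was also lower in DESeq2, at 0.11 against 0.28 in limma. The 18 nt row tRF-57:74-Gly-CCC-1-M4 had 181, 214 and 165 CPM after saline and 319, 294 and 210 CPM after nicotine. Nicotine 3 lay just below saline 2, and the log2 fold change was 0.54 (SE 0.40, adjusted p = 0.761 in limma).

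The 17 nt row tRF-58:74-Gly-CCC-1-M4 had 74.7, 77.7 and 92.1 CPM after saline and 198, 131 and 77.7 CPM after nicotine. Nicotine 1 was the highest, and the log2 fold change of 0.63 (SE 0.49, adjusted p = 0.771 in limma) was 0.31 without it. The 19 nt row tRF-56:74-Gly-CCC-1-M4 rested on 2 to 6 reads per library, with 16.01, 13.0 and 14.5 CPM after saline and 33.03, 32.7 and 15.5 CPM after nicotine. Its groups overlapped, and the log2 fold change was 0.79 (SE 0.83, adjusted p = 0.846 in limma).

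The 21 nt row tRF-54:74-Gly-CCC-1-M4 had 10.7, 13.0 and 14.5 CPM after saline and 99.1, 24.5 and 0 CPM after nicotine, on 0 to 9 reads per library. Nicotine 1 stood far above the other libraries and nicotine 3 had no read, so no fold is given. Summed over labels, the 18 nt and 22 nt forms, which start at positions 57 and 53, stood above the 17, 19 and 21 nt forms in all 6 libraries. The 18 nt form had 228 to 462 CPM and the 22 nt form 281 to 466 CPM. The order of these forms was not the same in every library, since the 18 nt form was the higher in nicotine 1 alone.

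Short 5' fragments were also scarce. At 14 nt the 2 rows together had 54.4 to 132 CPM over the 6 libraries, and at 15 nt the 3 rows had 46.6 to 143 CPM. The 16 nt row tRF-1:16-Gly-CCC-1-M2 had 139, 168 and 67.9 CPM after saline and 132, 32.7 and 77.7 CPM after nicotine. It was high in saline 1, saline 2 and nicotine 1 and low in nicotine 2, with a log2 fold change of -0.74 (SE 0.53). The rows of 22, 23 and 24 nt had 33.03 to 65.4, 6.48 to 40.9 and 33.9 to 66.1 CPM. The row tRF-1:15-Gly-CCC-4 had 0 reads in nicotine 1 and nicotine 3 and at most 5 reads elsewhere, so no fold is given.

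Over all 31 rows, 0 passed an adjusted p of 0.05 in limma, as did 0% of the 586 tested fragments. At an unadjusted p under 0.05 there were 0 of the 31, where 7.00% of all tested fragments fell below it, and the smallest unadjusted p among the 31 was 0.128. edgeR, which tested 16 of the 31, and DESeq2 also called 0, with 1 row each at an unadjusted p under 0.05. Among all fragments, 15 of 221 in edgeR and 17 of 615 in DESeq2 fell below it. The groups did not overlap in 3 of the 31 rows (9.68%), against 14.2% of all tested fragments in either direction. All 3 were lower after nicotine, where 1.54% of all tested fragments were lower without overlap. The 3 rows share a start and differ by at most 2 nt in length, so they are not independent of each other.

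Fold changes were negative in 18 of the 31 rows, against 35.5% of all tested fragments, and the median was -0.15 against 0.28. This majority did not hold throughout. When scaled to listed reads, a total that is mostly Gly-CCC, 10 of 31 were negative with a median of 0.09. Scaled to listed reads not from glycine tRNAs, 19 of 31 were negative with a median of -0.28. After TMM rescaling 22 were negative with a median of -0.47. Without saline 2 or without nicotine 3, 14 of 31 were negative, with medians of 0.02 and 0.10.

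Of the 11 rows of 28 to 32 nt, 10 had negative values with a median of -0.33. Scaled to listed reads 6 of 11 did, with a median of -0.09, and after TMM rescaling 10 did, with a median of -0.65. For listed reads not from glycine tRNAs 10 of 11 did, with a median of -0.45. Without saline 2, 8 of 11 did with a median of -0.14, and the median was -0.22 without nicotine 1 and -0.50 without nicotine 2. Of the 8 rows of 3' fragments, 7 had positive values with a median of 0.33, which became 5 of 8 with a median of 0.01 after TMM rescaling. Their median was 0.58 for listed reads, 0.55 without saline 2 and 0.64 without nicotine 3. The 9 short 5' rows divided into 5 positive and 4 negative, and into 4 and 5 without saline 1 or without nicotine 1. Not one of these fitted values passed the test. The scalings also shifted the median of all tested fragments, from 0.28 to -0.02 under TMM and to 0.52 for listed reads. This median was 0.17 for listed reads not from glycine tRNAs.

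**Figure D5:**
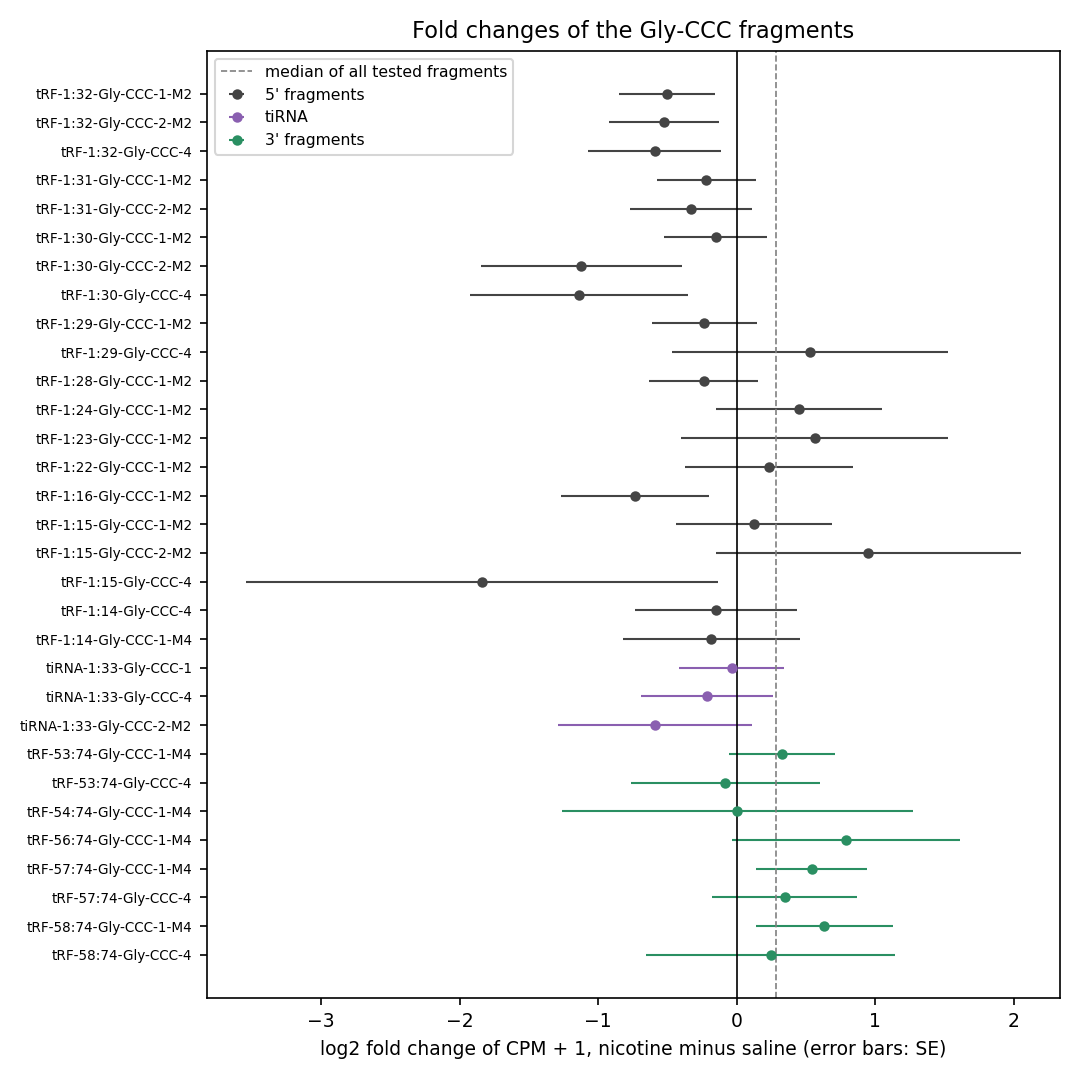
Fitted log2 fold change of CPM + 1 (nicotine minus saline) with its standard error for all 31 Gly-CCC fragments, ordered by kind and length. The dashed line is the median of all tested fragments, 0.28. Of the 11 rows of 28 to 32 nt 10 lie left of it, and error bars are wide for the rows with few reads.

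Against rows named Gly-GCC and Gly-TCC, rows named Gly-CCC took 90.5% ± 1.23 of the nuclear glycine reads after saline (SD, n = 3). After nicotine they took 89.8% ± 1.59 (SD, n = 3, exact permutation p = 0.8). At 33 nt alone, Gly-CCC had 10.6% to 17.6% of the reads named Gly-CCC or Gly-GCC. The log2 ratio of Gly-CCC to Gly-GCC 5' fragments was 3.74, 3.68 and 3.31 after saline and 3.47, 4.09 and 3.28 after nicotine. Nicotine 2 was the highest and nicotine 3 the lowest, and the group difference of 0.03 was not detected as a difference (exact permutation p = 1.0). It was -0.10 without saline 3, -0.20 without nicotine 2 and 0.20 without nicotine 3. The Gly-GCC sum itself was 44595 CPM ± 4468 after saline (SD, n = 3) and 36600 CPM ± 362 after nicotine (SD, n = 3), without overlap and with an adjusted p of 0.493 in limma.

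Reads of 28 to 33 nt of both names together had 577157, 473759 and 395314 CPM after saline and 351147, 445037 and 329433 CPM after nicotine. This sum, which does not rest on the names, again overlapped between the groups, with saline 1 highest and nicotine 3 lowest. In the 3' rows, Gly-CCC took 69.1% to 76.7% of the glycine reads.

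The fragments of other anticodons whose log2(CPM + 1) followed the Gly-CCC sum most closely were sought among 162 with a mean of at least 100 CPM. They were tRF-1:32-Lys-CTT-1 (Pearson r = 0.90 over 6 libraries), tRF-1:32-Glu-TTC-2-M2 (0.82), tRF-1:29-Val-AAC-1-M3 (0.72), tRF-1:32-Glu-TTC-4 (0.71) and tiRNA-1:34-Val-CAC-1-M2 (0.71). All 5 start at the first base. tRF-1:32-Lys-CTT-1 had 1889, 1697 and 1426 CPM after saline and 1519, 1832 and 1305 CPM after nicotine, with saline 1 highest and nicotine 3 lowest as for Gly-CCC. This likeness is a description of 6 libraries, each with a single total for all its fragments, and the closest of many candidates were taken.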

How the data were processed

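Adapters were ligated to total RNA, and the libraries were amplified and gel-selected, per the labels' protocols. FastQC, cutadapt and Bowtie are named without versions, per the submitters' processing notes. Genome build, tRNA annotation and filters are unknown here. The deposited values are CPM. In 2 of the 6 files no unit is stated, and CPM was inferred from the values. All deposited CPM values were whole multiples of 1 read within 0.001 reads (100%), which gave reads and totals. Listed reads were 47.1% to 68.8% of the totals. Kinds were read from the positions in the names. Replicates differed by more than sampling noise (chi-square per degree of freedom 11.9 to 24.4).

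limma 3.58.1 (trend, robust; R 4.3.3) was fitted to log2(CPM + 1) of rows reaching 1 CPM in 3 or more libraries, and to sums by anticodon and by kind and anticodon, with Benjamini-Hochberg adjustment. Alternatives were edgeR 4.0.16 and DESeq2 1.42.0 on recovered reads, pseudocounts of 0.5 and 10 CPM, filters, scalings, a replicate block and leaving out each library. Library values were compared by exact permutation (two-sided, scipy 1.17.1), adjusted over 8 tests. The limma fit was also run on simulated data. Their spread was set and not taken from these replicates, so its power here is not shown.

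Library values were given for the 8 most abundant rows, the highest of each kind, the 3 smallest p per direction and rows without overlap, and other rows named were chosen after their values were seen. The members, lists and rule were chosen with earlier results of these data known. The comparisons by single length and with Gly-GCC lengths were added after the data were seen.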

Additional observations from a re-analysis of the deposited data

How the results depend on the processing

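The count of fragments past the threshold, 0 of 586, became 1 in limma without trend and robust fitting, 1 with the replicate block and 0 to 5 with a library left out (5 without nicotine 3). That of sums by kind and anticodon became 0 to 2 with a library left out. No Gly-CCC row was called under any alternative run. Scaled to listed reads, log2 fold changes changed sign for the 31 nt (0.024), 30 nt (0.090), 28 nt (0.0037) and 29 nt (0.0098) fragments of Gly-CCC-1-M2. They also did for the 33 nt tiRNA (0.21) and the tiRNA sum (0.18). That scaling divides by a total that is mostly Gly-CCC, and it moved the median of all tested fragments from 0.28 to 0.52. Scaled to listed reads not from glycine tRNAs, 10 of the 11 rows of 28 to 32 nt and all 3 tiRNA rows were negative. tRF-53:74-Gly-CCC-1-M4 had -0.0047 in DESeq2, where the median of all fragments was 0.11. With a library left out the ranges were -0.41 to 0.10 (30 nt), -0.59 to 0.12 (28 nt), -0.24 to 0.23 (33 nt tiRNA), -0.27 to 0.21 (tiRNA sum) and -0.20 to 0.20 (log2 ratio to Gly-GCC). The difference in the share of glycine reads, -0.654 percentage points, became 0.0629 for 5' fragments of 28 to 32 nt, 0.0697 at 31 nt and 0.685 at 32 nt, and the log2 ratio to Gly-GCC became -0.080 with tiRNA added. The causes were not tested.

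The rat numbers gave correlations of 0.087, 0.109 and 0.161 between same-numbered libraries, and every library correlated best with its own number. Correlations between differently numbered libraries ran from -0.104 to -0.0051. Same-numbered libraries were not taken as pairs, since 1 correlation lies under 0.1, but this does not settle whether the numbers mark pairs. With the replicate block the smallest adjusted p over sums by kind and anticodon was 0.0587 in limma, against 0.543 without it. With 3 pairs in balance the replicate block leaves the fitted difference of the Gly-CCC sum at -0.36 by construction and changes only its error (adjusted p = 0.408 in limma), and the exact sign-flip p of the 3' share was 0.25, the smallest that 3 pairs allow. Depth limits rows of few reads, since 1 read in nicotine 1 is worth 11.0 CPM.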
